A study of Mus musculus with 15 samples.

Results

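The genes described here are 10 transcription factors that set up the identity and the effector programmes of invariant natural killer T (iNKT) cells: Zbtb16, Tbx21, Eomes, Gata3, Maf, Runx1, Runx3, Bcl11b, Rora and Prdm1. They were taken by name, and all 10 were found among the 48795 genes of the expression tables. RNAseq had been performed on iNKT cells sorted from wild-type C57BL/6 mice at 6 weeks of age, as cells that bound a CD1d tetramer and carried TCRβ but not B220, CD11b, CD11c or CD8. There were 4 samples each from thymus, spleen and mesenteric lymph node (mLN) and 3 from inguinal lymph node (iLN), with no treatment or transgene in any group. iLN replicate 1 was not analysed here. Totals ranged from 1152702 expected counts in thymus replicate 2 to 8670570 in spleen replicate 1. Replicates 3 and 4 of every tissue belonged to the first batch (8 samples) and replicates 1 and 2 to the second (7 samples, with 1 iLN sample). The labels do not say whether a replicate was 1 mouse or a pool of mice, so p-values measure the spread between these samples. LNs were digested with enzymes before sorting while spleen and thymus were strained. Where an LN is compared with spleen or thymus, tissue and preparation therefore cannot be told apart.

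iNKT cells develop in the thymus from CD4+CD8+ precursors that are selected by CD1d, and mature into subsets that resemble helper T cell lineages. PLZF, encoded by Zbtb16, is the factor that gives iNKT cells their innate-like behaviour, and is highest in NKT2 cells. T-bet (Tbx21) drives the NKT1 programme of IFNγ and cytotoxic genes, GATA3 supports NKT2 cytokines and early T cell development, and NKT17 cells produce IL-17. RORα (Rora) is a nuclear receptor of lymphoid cells, c-MAF (Maf) regulates IL-10, IL-4 and IL-17 producing cells, RUNX1 acts in early iNKT development and RUNX3 in cytotoxic lineages, BCL11B maintains T cell commitment, and BLIMP-1 (Prdm1) is a repressor found in effector cells. Eomesodermin (Eomes) is the T-box relative of T-bet that marks many NK and memory CD8 T cells.

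The invariant Vα14 gene segment Trav11 was read in every sample, at 145 to 335 normalised CPM (counts scaled to library size with TMM factors), and Cd3e at 862 to 1509. Of the markers of other cells, 6 B cell genes summed to 135 CPM in spleen replicate 1, while the median of the 4 spleen samples was 10.4. Red cell genes summed to 24.0 to 117 CPM in spleen against at most 14.7 elsewhere, and CD8 and immature thymocyte genes to 64.7 CPM in thymus replicate 2, where Rag1 stood at 22.1 CPM. Foxp3 reached 33.95 CPM in mLN replicate 2. The 8 myeloid and dendritic cell genes summed to at most 70.9 CPM in spleen and 54.4 in the other tissues. Lyz2, 1 of them, reached 43.1 CPM in spleen replicate 1. The 5 NK and innate lymphoid cell genes summed to at most 15.9 CPM in iLN and 5.23 elsewhere. Kit, 1 of these, reached 15.7 CPM in iLN replicate 4. The sum of 4 gamma-delta T cell genes was 61.0 to 90.3 CPM in iLN and at most 41.0 in the other tissues, with Trdc, which encodes the constant region of the δ chain, at a mean of 0.0598 CPM in iLN. Batch touched several of the factors: relative to the first batch, the second was lower for Tbx21 by a log2 difference of -1.29 (adjusted p = 9.07e-04) and for Runx3 by -0.71 (adjusted p = 0.0094), and higher for Runx1 by 0.54 (adjusted p = 0.00262). Across all genes, 4.54% differed between batches at this threshold of 0.01, and batch was therefore a term in every test.

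Per transcript length, which allows levels of different genes to be compared, Runx1 was the most abundant of the factors and Eomes the least. In TPM, which scales transcripts to a fixed total per sample, Runx1 had a median rank of 1 among the 10 over the 15 samples, and Prdm1 and Eomes had median ranks of 9 and 10. Mean TPM of Runx1 was 41.2 ± 7.92 in thymus (SD, n = 4), 87.4 ± 28.3 in spleen (n = 4), 82.9 ± 23.3 in mLN (n = 4) and 96.5 ± 31.2 in iLN (n = 3). Thymus was the exception to this order, because there Runx3 had the highest mean TPM (67.8 ± 18.2). Prdm1 ranged from a mean TPM of 7.46 ± 2.43 in thymus to 14.8 ± 4.67 in spleen. TPM also moves with the transcript length that the quantification assigned: for Gata3 this length ran from 1679 to 3215 bases between samples. Comparisons between tissues therefore rest on counts and are given below as normalised CPM.

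**Figure D1:**
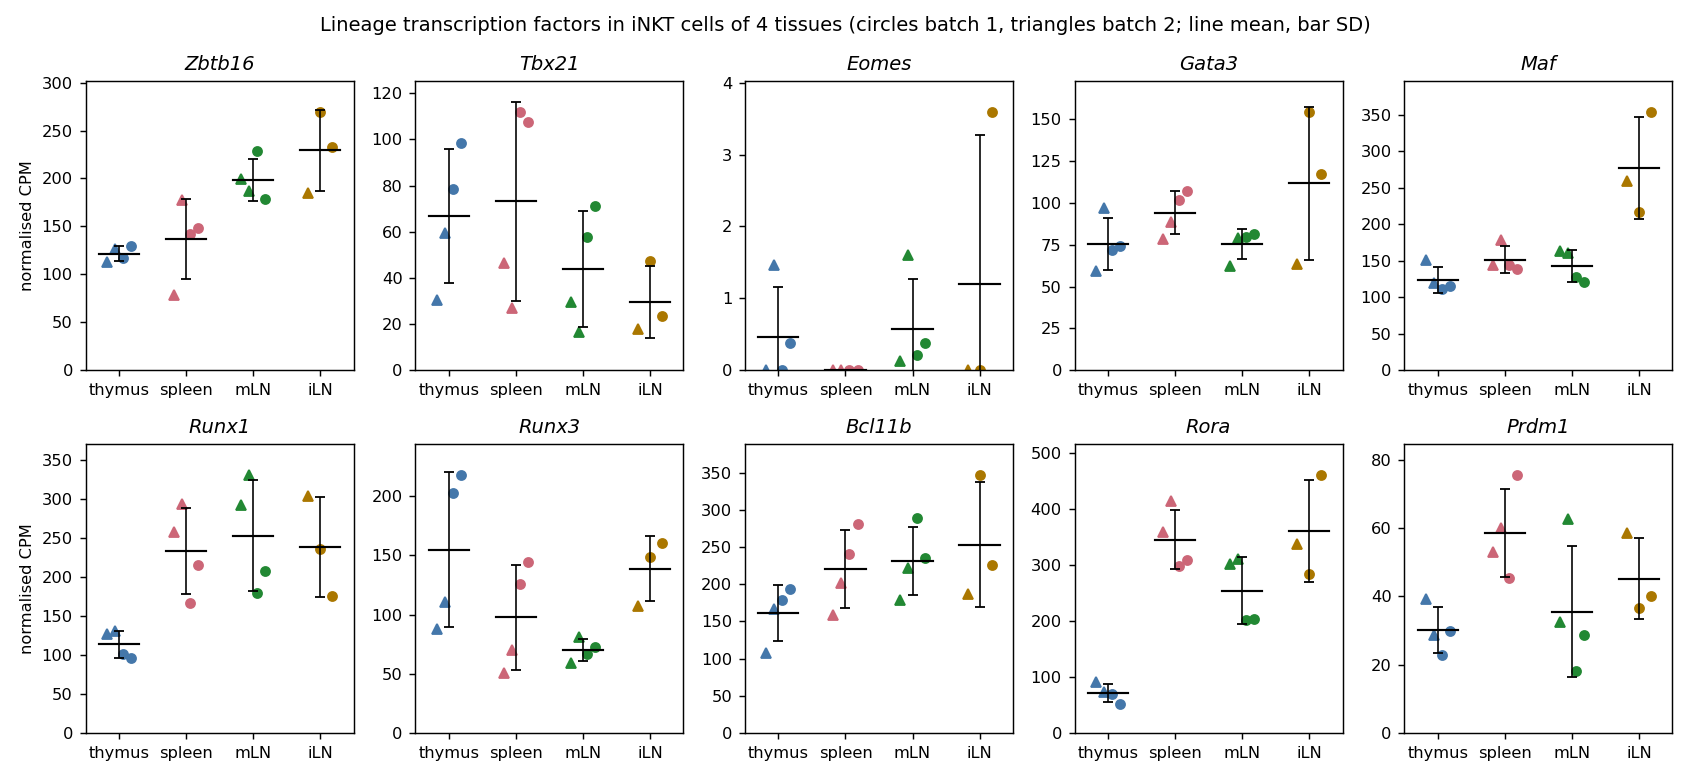
Normalised CPM (vertical axis, from 0) of the 10 transcription factors in iNKT cells of thymus, spleen, mLN and iLN, with 1 point per sample, circles for the first batch and triangles for the second, and the mean (line) and SD (bar) of each tissue. Rora lies between 52.0 and 91.7 in thymus and at 201 or more in every other sample, Maf is highest in the 3 iLN samples, and all 7 LN samples of Zbtb16 lie above the 8 samples of spleen and thymus.

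Differences between tissues were called by edgeR's quasi-likelihood test at a Benjamini-Hochberg adjusted p under 0.01 with a fold change over 1.5, over the 13600 genes that passed a filter on low counts. The filter kept 9 of the 10 factors, and Eomes, with 40 counts in all samples together, did not pass. Between thymus and spleen, 2 of the 9 factors were called, against 1.32% of all genes tested. Between mLN and spleen edgeR called none of the 9 (0.654% of all genes), DESeq2 called none either, and 4 had an unadjusted p under 0.05. Between iLN and spleen 1 was called (1.55%). Against thymus, 2 factors were called in mLN (1.6%) and 3 in iLN (1.5%), and between iLN and mLN 1 was called (0.471%). In the mean of both LNs against the mean of spleen and thymus, 4 factors were called (1.72%). In the test over 4 tissues together, which uses the adjusted p alone, 3 factors passed (3.38%). The comparisons share samples, so that calls for 1 factor in several of them are not separate evidence. By this test Gata3, Bcl11b, Prdm1 and Runx3 were not called in any comparison, and Runx3 was called by DESeq2 in mLN against thymus.

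**Figure D2:**
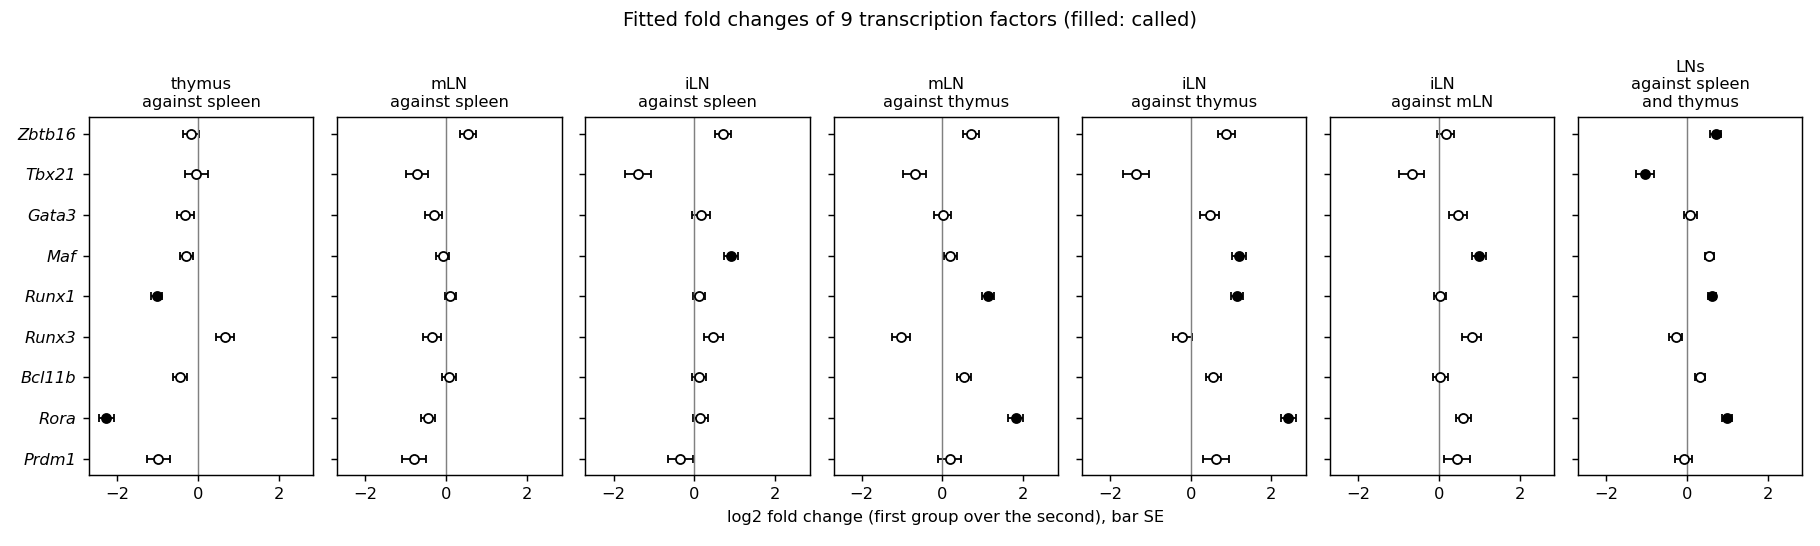
Fitted log2 fold changes (horizontal axis, first group over the second, bars SE) of the 9 factors tested in 6 pairs of tissues and in the mean of both LNs against the mean of spleen and thymus, with filled points for called differences. The largest filled points are the thymus comparisons of Rora, at -2.27 against spleen and 2.42 for iLN against thymus, and no point is filled between mLN and spleen.

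Rora and Runx1 separated the thymus from the periphery. Rora stood at 91.7, 73.5, 70.0 and 52.0 CPM in thymus replicates 1 to 4, at 358, 414, 299 and 309 CPM in spleen replicates 1 to 4, at 301, 310.2, 201 and 204 CPM in mLN replicates 1 to 4, and at 337, 284 and 461 CPM in iLN replicates 2 to 4. Every thymus sample was thus below every peripheral sample. Ordered by mean, iLN (361 ± 90.8, SD, n = 3) and spleen (345 ± 52.9, n = 4) came before mLN (254 ± 59.5, n = 4) and thymus (71.8 ± 16.3, n = 4). The peripheral tissues did not differ from their neighbours in this order past the threshold (spleen to mLN adjusted p = 0.237, iLN to spleen 0.766). Rora was lower in thymus than in spleen by a log2 difference of -2.27 (SE 0.18, adjusted p = 3.24e-07), a 4.81-fold change, and was higher than thymus by 1.81 in mLN (SE 0.18, adjusted p = 4.59e-06) and by 2.42 in iLN (SE 0.19, adjusted p = 4.73e-07). This difference was present in each batch: mean Rora in thymus and spleen was 61.0 and 304 CPM in the first batch and 82.6 and 386 CPM in the second, and the thymus calls of Rora held with either batch alone. It was also as large with any 1 of the 15 samples left out, at -2.35 to -2.18 against spleen, including thymus replicate 2 and spleen replicate 1. CD8 and immature thymocyte genes summed to 13.5 to 64.7 CPM in thymus and to at most 13.5 elsewhere, and their part beyond thymus replicate 2 was not tested.

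Runx1 was also lowest in thymus, with a smaller step. It stood at 126, 130.1, 101 and 95.4 CPM in the 4 thymus samples, at 258, 293, 166 and 214 in spleen, at 292, 331, 179 and 207 in mLN, and at 304, 236 and 175 in iLN. No thymus sample reached the lowest peripheral sample, and in each tissue the samples of the second batch were the higher ones. Runx1 was lower in thymus than in spleen by a log2 difference of -1.03 (SE 0.14, adjusted p = 2.31e-04), 2.04-fold, and higher than thymus by 1.13 in mLN (SE 0.14, adjusted p = 7.32e-05) and by 1.15 in iLN (SE 0.15, adjusted p = 1.60e-04). The means of mLN (252 ± 71.0, n = 4), iLN (238 ± 64.3, n = 3) and spleen (233 ± 54.6, n = 4) lay within each other's spread, with adjusted p of 0.771 to 0.967 between these tissues. Within the first batch alone Runx1 in thymus against spleen was -0.96 (adjusted p = 0.0744) and within the second -1.12 (adjusted p = 0.0572), so that the direction and size were kept and the call was not. Without a batch term the adjusted p was 0.0202. The LNs exceeded the mean of spleen and thymus for Runx1 by 0.62 (SE 0.10, adjusted p = 0.00115) and for Rora by 0.98 (SE 0.13, adjusted p = 1.14e-04), where thymus is 1 of the 2 tissues compared with. For Runx1 this call was lost without mLN replicate 2 or iLN replicate 3, when the differences of 0.58 and 0.57 were below the fold required.

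All samples of thymus lay outside the range of spleen for 3 of the 9 factors, Rora, Runx1 and Prdm1, each lower, and this was the case for 8.56% of all genes tested. Between mLN and thymus the ranges did not overlap for 4 factors (8.05% of all genes), with Zbtb16, Runx1 and Rora higher and Runx3 lower in mLN, and between iLN and thymus for 4 (13.4%), Zbtb16, Maf, Runx1 and Rora, all higher in iLN. Between mLN and spleen this held for Zbtb16 alone of the 9 (6.2%), between iLN and spleen for Zbtb16 and Maf (12.9%), and between iLN and mLN for Maf and Runx3 (8.48%).

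The promoters of Rora and Runx1 are shown because both genes were lower in thymus, and that of Runx3 because the values of this relative of Runx1 ran differently. The last was chosen after its letters were seen. The sequences are the RefSeq bases before the start site on GRCm38.p6, 5′ to 3′ on the strand of the gene and without any annotated exon. Capitals mark matches to 5 short motifs, searched on both strands, whose share is given among 32851 promoter windows of 250 bases. The core bound by RUNX proteins, spelled TGTGGT, was held by 14.05% of all windows. The motif of the zinc finger GATA family, spelled AGATAA, was held by 9.99% of windows and the core of the T-box family, spelled GGTGTG, by 16.3%. The response element of ROR proteins, spelled AGGTCA, was held by 14.02% and the general promoter box spelled TATAAA by 12.4%. The RUNX and T-box cores can share letters, and no such overlap was met in these sequences.
Rora, plus strand, chr9:68653536-68653785: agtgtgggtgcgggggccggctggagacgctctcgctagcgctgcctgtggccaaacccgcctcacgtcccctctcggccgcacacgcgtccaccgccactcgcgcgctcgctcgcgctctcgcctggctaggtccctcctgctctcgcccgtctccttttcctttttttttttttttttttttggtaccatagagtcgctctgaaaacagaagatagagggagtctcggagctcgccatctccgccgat
Runx1 distal promoter, minus strand, chr16:92826150-92826324: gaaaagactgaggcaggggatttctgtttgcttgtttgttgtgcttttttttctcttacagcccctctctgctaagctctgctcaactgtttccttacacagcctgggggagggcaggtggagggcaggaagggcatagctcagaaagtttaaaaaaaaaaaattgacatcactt
Runx1 proximal promoter, minus strand, chr16:92697330-92697579: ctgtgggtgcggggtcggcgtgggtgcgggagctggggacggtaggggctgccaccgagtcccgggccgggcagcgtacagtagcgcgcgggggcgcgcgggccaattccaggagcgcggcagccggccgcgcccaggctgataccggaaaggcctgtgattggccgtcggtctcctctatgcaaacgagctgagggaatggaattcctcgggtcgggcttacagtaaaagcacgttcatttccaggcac
Runx3 distal promoter, plus strand, chr4:135120395-135120644: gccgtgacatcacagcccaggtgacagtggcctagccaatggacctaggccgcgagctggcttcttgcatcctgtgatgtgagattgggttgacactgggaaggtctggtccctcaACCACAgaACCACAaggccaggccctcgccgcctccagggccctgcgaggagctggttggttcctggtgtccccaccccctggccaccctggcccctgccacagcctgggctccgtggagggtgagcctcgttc
None of the 5 motifs was found in the windows of Rora and of both Runx1 promoters, which are GC-rich at the Rora start (61.2%) and the proximal Runx1 start (67.6%) and less so at the distal Runx1 start (45.6%), each over the 250 bases before the start. The distal Runx3 promoter held 2 matches to the RUNX core on the minus strand, which begin 134 and 126 bases before the start and read ACCACA on the strand shown. Sequences were found for 8 of the 10 factors, and among the 10 promoters of these 8 genes the other match was GGTGTG, 169 bases before the start of Gata3. A match is a stretch of letters and not a site shown to be bound.

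Runx3 stood apart from Runx1. It was measured at 87.6, 111, 203 and 218 CPM in thymus, at 50.9, 70.2, 126 and 144 in spleen, at 59.1, 80.8, 66.8 and 72.4 in mLN, and at 108, 149 and 160.1 in iLN. The mLN samples were all below the thymus and iLN samples, whereas spleen overlapped every tissue, and in thymus, spleen and iLN the samples of the first batch were the higher ones. The log2 difference of mLN against thymus was -1.02 (SE 0.22, adjusted p = 0.0129) and that of iLN against mLN 0.81 (SE 0.24, adjusted p = 0.0967), neither of which was called. In the first batch alone the difference of mLN against thymus was -1.60 (adjusted p = 0.00215), with means of 69.6 and 210 CPM, and in the second batch the means were 70.0 and 99.3 CPM. DESeq2 called it as well, at an adjusted p of 0.00102.

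In TPM, the ratio of Runx3 to Runx1 within a sample was above 1 in all 4 thymus samples (1.07 to 2.57) and below 1 in all 11 peripheral samples (0.226 to 0.908). On the log2 scale it averaged 0.70 ± 0.58 in thymus (SD, n = 4), -1.18 ± 1.02 in spleen (n = 4), -1.54 ± 0.50 in mLN (n = 4) and -0.80 ± 0.80 in iLN (n = 3). The separation was not kept on counts. As a ratio of normalised CPM, thymus replicates 1 and 2 of the second batch stood at 0.695 and 0.853 and overlapped the periphery, where iLN replicate 4 reached 0.914 and spleen replicate 3 0.755, while thymus replicates 3 and 4 exceeded all others. Log2 means were then 0.36 in thymus and -1.82 to -0.76 in the periphery. This is a description of values that were also used above, and no test was made of it.

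Zbtb16 was highest in the LNs. It stood at 113, 126, 117 and 129 CPM in thymus, at 78.9, 178, 143 and 148 in spleen, at 199, 187, 228 and 179 in mLN, and at 185, 269 and 233 in iLN. The 7 LN samples were all above the 8 samples of spleen and thymus, with a narrow gap between 178 CPM in spleen replicate 2 and 179 in mLN replicate 4. Such a separation was found for 0.669% of all genes and for no other of the 9 factors. In order of the means, iLN (229 ± 42.2) was followed by mLN (198 ± 21.7), spleen (137 ± 41.6) and thymus (121 ± 7.83), and no pair of neighbours differed past the threshold. The mean of both LNs exceeded that of spleen and thymus by a log2 difference of 0.71 (SE 0.14, adjusted p = 0.00538), 1.64-fold. This difference was not called without a batch term or by limma on log2(TPM + 1). Among single pairs of tissues, the adjusted p was lowest for iLN against thymus (0.0223, log2 difference 0.88). The call was kept without spleen replicate 1, spleen replicate 2, mLN replicate 4 or iLN replicate 2 and was lost without any other single sample, with log2 differences of 0.62 to 0.80 and adjusted p of up to 0.0200. Within the first batch the difference was 0.74 (adjusted p = 0.0174) and within the second 0.61 (adjusted p = 0.470).

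Tbx21 went the other way. It stood at 30.4, 59.5, 78.5 and 98.7 CPM in thymus, at 46.4, 26.7, 112 and 108 in spleen, at 29.4, 16.7, 57.8 and 71.1 in mLN, and at 17.9, 47.1 and 23.4 in iLN. The tissues overlapped, and within each tissue the samples of the second batch were the lower ones, with means of 36.6 against 110 CPM in spleen and 23.1 against 64.5 CPM in mLN. The order of the means was spleen (73.2 ± 43.03), thymus (66.8 ± 29.1), mLN (43.8 ± 25.1) and iLN (29.5 ± 15.5), with no called difference between neighbours. With batch in the model, the LNs were lower than spleen and thymus by a log2 difference of -1.04 (SE 0.21, adjusted p = 0.00725), 2.06-fold. With the replicate number in place of batch in the edgeR model, the adjusted p was 0.0155 and the call was lost. The difference was -1.07 within the first batch (adjusted p = 0.0310) and -0.99 within the second (adjusted p = 0.482), and without a batch term its adjusted p was 0.203. The call was kept without thymus replicate 1, spleen replicate 2, mLN replicate 1 or iLN replicate 3 and was lost without any other single sample, with log2 differences of -1.14 to -0.92 and adjusted p of up to 0.0211. Against spleen and against thymus, iLN was lower by -1.40 (SE 0.32, adjusted p = 0.0164) and -1.36 (SE 0.32, adjusted p = 0.0233), neither of which was called by edgeR, while DESeq2 gave adjusted p of 9.43e-04 and 0.00151.

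Set against each other in TPM within a sample, Tbx21 and Zbtb16 had a mean log2 ratio near 0 in thymus and spleen. The TPM of Zbtb16 exceeded that of Tbx21 in every LN sample. In normalised CPM, which is not per length, Zbtb16 exceeded Tbx21 in every sample of all tissues. The TPM ratio of Tbx21 to Zbtb16 ran from 0.578 to 1.63 in thymus, from 0.323 to 1.67 in spleen, from 0.191 to 0.850 in mLN and from 0.207 to 0.374 in iLN. Thymus replicate 1, at 0.578, and spleen replicate 2, at 0.323, fell within the range of mLN, so that the tissues overlapped. Mean log2 ratios were 0.11 ± 0.67, 0.02 ± 1.11, -1.29 ± 0.93 and -1.97 ± 0.48 in these 4 tissues. Tbx21 also differed between batches, and no test was made of the ratio.

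**Figure D3:**
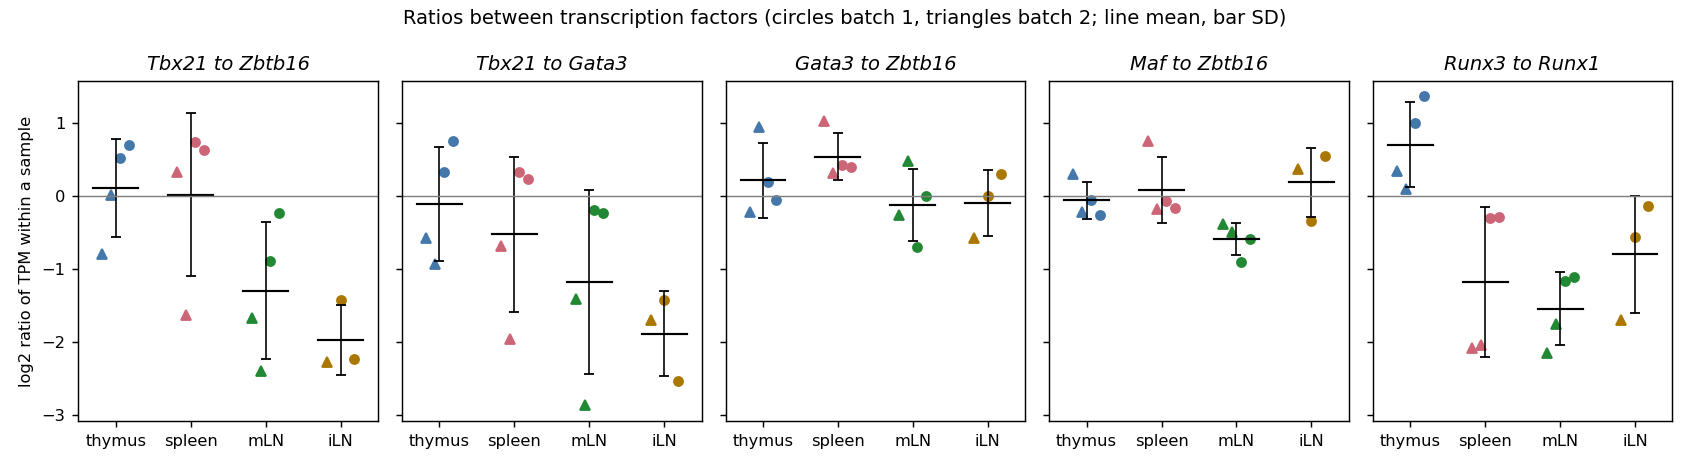
Log2 ratio of TPM within each sample (vertical axis, 0 marks equal TPM) for 5 pairs of factors, with 1 point per sample, circles for the first batch and triangles for the second, and the mean (line) and SD (bar) of each tissue. All 4 thymus samples lie above 0 for Runx3 to Runx1 and all 11 others below, a split in TPM that was not kept as a ratio of CPM, and all LN samples lie below 0 for Tbx21 to Zbtb16.

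Maf was raised in iLN alone among the 4 tissues. It stood at 150.4, 119, 111 and 116 CPM in thymus, at 144, 179, 144 and 139 in spleen, at 164, 160.5, 127 and 121 in mLN, and at 259.8, 217 and 354 in iLN. All iLN samples were above all 12 other samples, which lay between 111 and 179 CPM. Maf was higher in iLN than in thymus by a log2 difference of 1.199 (SE 0.18, adjusted p = 4.11e-04), than in mLN by 1.002 (SE 0.18, adjusted p = 0.00472) and than in spleen by 0.91 (SE 0.17, adjusted p = 0.00467). The means of spleen (152 ± 18.5), mLN (143 ± 21.9) and thymus (124 ± 17.8) were neighbours without a called difference (adjusted p of 0.606 to 0.894). In the mean of both LNs against spleen and thymus, Maf reached an adjusted p of 0.00979 with a 1.47-fold change, below the fold required. The call against thymus held without any single sample, whereas iLN replicate 4 carried part of the difference: without it the log2 differences were 0.63 against spleen (adjusted p = 0.0328) and 0.73 against mLN. The call against spleen was also lost without spleen replicate 1, 3 or 4 (0.85 to 0.93, adjusted p of up to 0.0236), and that against mLN without mLN replicate 2, 3 or 4 (0.95 to 1.03, adjusted p of up to 0.0300). Within a single batch all 3 calls were lost: in the first, iLN against thymus was 1.32 (adjusted p = 0.0137), against spleen 0.99 (0.0469) and against mLN 1.198 (0.0384), and in the second 0.93 (0.442), 0.67 (0.517) and 0.67 (0.569). Without a batch term, the calls against spleen (adjusted p = 0.0240) and mLN (0.0264) were lost. All 3 calls were lost by limma on log2(TPM + 1) and when only the tissues compared were fitted. Maf shares 440 exonic bases (5.34% of its exons) with Gm15655 on the opposite strand, and whether the counting used strand is not given in the sources used here.

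By edgeR, Prdm1, Bcl11b and Gata3 gave no called difference. Prdm1 stood at 39.1, 28.7, 22.9 and 29.98 CPM in thymus and at 52.9, 60.0, 45.3 and 75.7 in spleen, so that these ranges did not overlap, and the log2 difference of -0.98 had an SE of 0.29 and an adjusted p of 0.101. In mLN it ranged from 18.1 to 62.8 CPM and in iLN from 36.6 to 58.7, both overlapping thymus and spleen. Bcl11b ranged from 108 to 193 CPM in thymus and from 159 to 348 in the other tissues, with a log2 difference of 0.56 for iLN against thymus (SE 0.18, adjusted p = 0.107), and a log2 difference of -0.49 between the second and the first batch (adjusted p = 0.0176). Gata3 had means of 75.6 ± 15.7 CPM in thymus, 94.1 ± 12.9 in spleen, 75.7 ± 8.94 in mLN and 112 ± 45.8 in iLN, where its samples spread from 63.3 to 154 CPM. Its log2 differences lay between -0.31 and 0.48 in the 6 pairs of tissues, and the lowest adjusted p among them was 0.320.

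Eomes was barely detected. It had 0 counts in all 4 spleen samples, which allows up to 0.117 CPM (3 counts over the 4 samples), 4 counts in thymus, 15 in mLN and 21 in iLN. All 21 counts in iLN came from replicate 4, at 3.59 CPM, and the other iLN samples had none. In mLN, replicate 2 held 11 of the 15 counts. The ratio of Tbx21 to Eomes TPM could be formed in 7 samples, and ran from 4.15 in iLN replicate 4 to 396 in mLN. Limits from counts of 0 cover counting error only, as reads are not independent molecules.

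The genes that work with or under these factors were described by lists. These lists were chosen with earlier results of these data known, so that the counts of called genes are descriptions and support no statement on the lists. Of 14 genes associated with T-bet and NKT1 cells, 10 were lower and none higher in the LNs than in spleen and thymus, where 1.72% of all genes were called, with a median log2 difference of -1.21 where that of all genes was 0.02. Among them were Gzma, which encodes granzyme A and averaged 58.9 CPM in thymus, 10.7 in spleen, 1.10 in mLN and 0.270 in iLN (adjusted p = 1.23e-05), the NK receptor gene Klrd1 (-2.89, SE 0.28, adjusted p = 4.11e-06) and Klrk1, which encodes NKG2D (-1.66, SE 0.14, adjusted p = 1.60e-06). Klrk1 averaged 273 CPM in thymus, 101 in spleen, 30.8 in mLN and 88.1 in iLN. It was called higher in iLN than in mLN (1.52, adjusted p = 3.28e-04), and iLN against spleen was -0.18 (adjusted p = 0.731). Gzma was near 0 in the LNs, and the thymus and spleen samples where it was high could carry it past the filter, so that its calls are a description. Between thymus and spleen the list split, and Tbx21 itself differed by -0.04: Klrd1 (2.03) and Klrk1 (1.44) were higher in thymus, and the chemokine gene Ccl5 (-2.68) and Cd160 (-1.15) were lower. Against spleen, 5 of the 14 were lower in mLN (0.654% of all genes called) and 7 in iLN (1.55%), and against thymus 6 were lower and 1 higher in mLN (Ccl5, 1.28, with 1.6% of all genes called) and 8 lower in iLN (1.5%).

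Of 11 genes associated with GATA3 and NKT2 cells, 4 were higher in the LNs and none lower (1.72% of all genes called), with a median log2 difference of 0.63. They were the IL-6 receptor gene Il6ra (1.65), the chemokine receptor gene Ccr4 (1.25), the folate receptor family gene Izumo1r (0.91) and the costimulator gene Icos (0.82), with adjusted p of 1.94e-04 to 0.00156, while Gata3 itself differed by 0.08 (SE 0.16, adjusted p = 0.849). Izumo1r was also called higher in thymus than in spleen (1.53, adjusted p = 2.92e-04). The LNs were not called against thymus for Izumo1r, at 0.49 in mLN (adjusted p = 0.301) and -0.19 in iLN (adjusted p = 0.731). Icos was not called in mLN, at 0.48 against spleen (adjusted p = 0.177) and 0.0133 against thymus (adjusted p = 0.987). It was called higher in iLN than in mLN (1.15, adjusted p = 0.00101). The cytokine genes Il4 and Il13 were low, at no more than 9.82 and 10.7 CPM in any sample, and were not called. Against spleen 3 genes were higher in mLN (0.654% of all genes called) and 4 in iLN (1.55%), and the SLAM family gene Slamf6 was lower in iLN than in mLN (-2.57, adjusted p = 6.21e-05).

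Of 13 genes associated with NKT17 cells, Il17a, Il17f and Il22 were at 1.02 CPM or less in every sample and did not pass the filter, and 10 passed. Of these, 8 were called higher in the LNs (1.72% of all genes called). Genes such as Ccr6 and Sdc1 were low in thymus and spleen, and the LN samples where they were high could carry them past the filter, so that this count is a description and supports no statement on the list. The largest differences were those of the receptor gene Ccr6, which averaged 0.0926, 0.840, 5.77 and 42.8 CPM in thymus, spleen, mLN and iLN, of the NKT17 surface marker Sdc1 (4.43, SE 0.39, adjusted p = 1.85e-06) and of Il23r (3.87, SE 0.64, adjusted p = 0.00117). Against spleen, 8 genes were called in iLN (1.55% of all genes) and 2 in mLN (0.654%), and the difference between iLN and mLN was itself called for Sdc1 alone of the 10 (2.78, adjusted p = 0.00670). Rora differed by 0.15 between iLN and spleen (SE 0.18, adjusted p = 0.766). Of the 4 gamma-delta T cell genes, Sox13 averaged 28.7 CPM in iLN against 1.51 to 6.27 in the other tissues and was called against spleen (adjusted p = 0.00234), and Trgv2 averaged 42.3 CPM in iLN and was not called in any comparison. Trdc was at its lowest mean in iLN, and Trdv4 was at 0 in all samples. In bulk samples, fewer cells of a subset and less RNA per cell cannot be told apart.

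**Figure D4:**
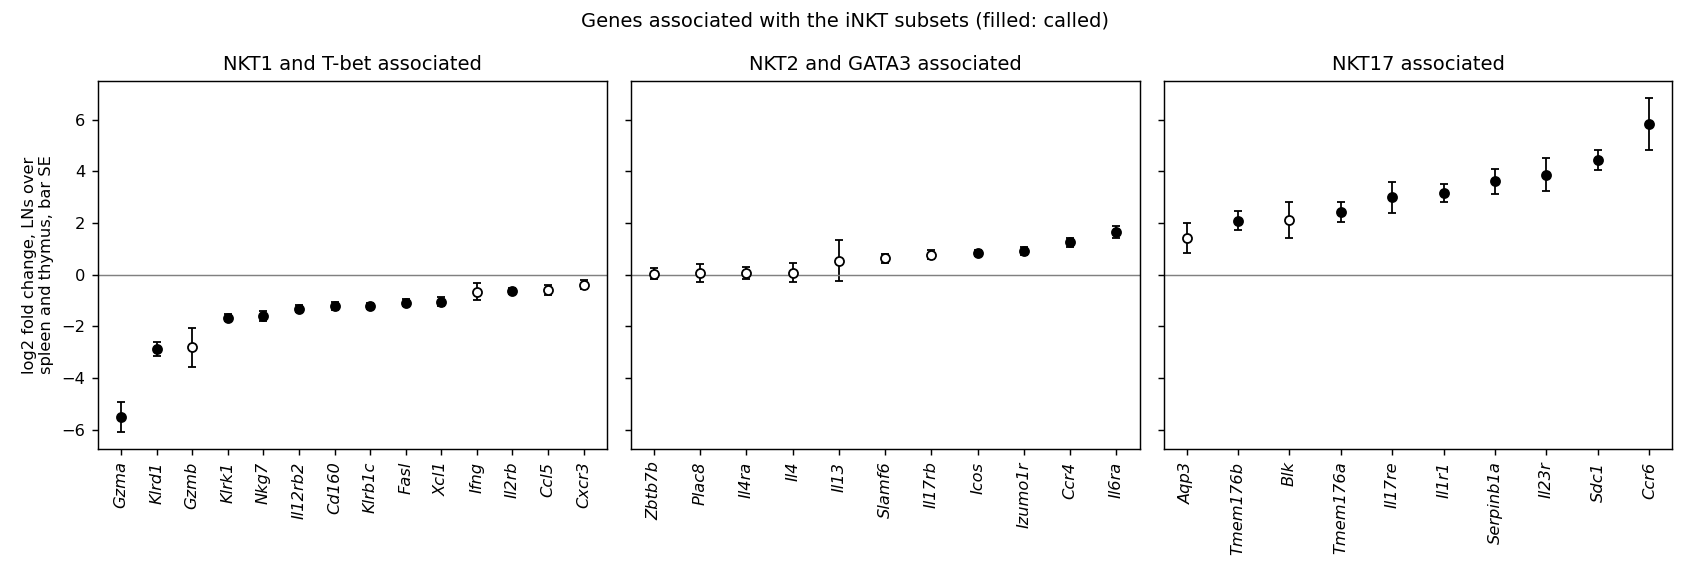
Log2 fold change of the LNs over spleen and thymus (vertical axis, bars SE) for the tested genes of the NKT1, NKT2 and NKT17 lists, 1 point per gene in order of its value, with filled points for called differences. Of the NKT1 genes 10 of 14 are called and lower, of the NKT2 genes 4 of 11 are called and higher, and of the NKT17 genes 8 of the 10 that passed the filter are called and higher.

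Among 19 family relatives and partners of the factors, 14 passed the filter and 1 was called in the LNs, Zfp683, where 1.72% of all genes were called. Zfp683 encodes HOBIT, a relative of BLIMP-1, and was lower in the LNs by a log2 difference of -1.24 (SE 0.16, adjusted p = 9.35e-05), with means of 191 CPM in thymus, 148 in spleen, 70.9 in mLN and 75.1 in iLN. Runx2, the third RUNX family gene, averaged 43.7 CPM in thymus, 15.1 in spleen, 11.1 in mLN and 63.1 in iLN. It was higher in iLN than in spleen by 2.15 (SE 0.37, adjusted p = 0.00198) and than in mLN by 2.63 (SE 0.38, adjusted p = 7.43e-04), and lower in mLN than in thymus by -1.99 (SE 0.35, adjusted p = 0.00215). Cbfb, which encodes their shared partner, was not called in any comparison, and neither were Cul3, the ubiquitin ligase partner of PLZF, and Bcl6, the antagonist of BLIMP-1.

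Over the 15 samples, after removal of the batch difference, Rora and Runx1 were the most alike pair of factors (Pearson's r = 0.90), followed by Runx1 and Bcl11b (0.82), while Tbx21 was opposed to Maf (-0.81) and to Zbtb16 (-0.73). Runx1 and Runx3 had an r of -0.49. Among 10137 other genes with a mean of at least 5 CPM, the closest to Rora was Il2ra, which encodes the α chain of the IL-2 receptor (r = 0.97), followed by Rbl2 (0.96), and Il2ra was also the second closest to Runx1 (0.92), after Themis (0.94), a gene of T cell selection in the thymus. Il2ra averaged 9.98 CPM in thymus, 129 in spleen, 103 in mLN and 242 in iLN. It is also a regulatory T cell marker, and the 4 genes of that list summed to 179 to 250 CPM in thymus, 375 to 503 in spleen, 295 to 484 in mLN and 540 to 715 in iLN. This sum includes Il2ra itself. Most of the rest was Ikzf2, with means of 193 CPM in thymus, 310 in spleen, 252 in mLN and 382 in iLN. Foxp3, the defining gene of that list, averaged 0.577 CPM in thymus, 1.25 in spleen, 10.6 in mLN and 10.8 in iLN, and the part of regulatory T cells in these values was not tested.

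The genes closest to the other factors were Pum2 (r = 0.92) and Letm1 (0.91) for Zbtb16, Clec2d (0.91) and Dnaja4 (0.88) for Tbx21, and Dnajb14 (0.93) and C030034L19Rik (0.91) for Maf. For Gata3 they were Ccdc6 (0.89) and Aak1 (0.82), for Runx3 Ccdc71 (0.84) and Pxylp1 (0.83), for Bcl11b Arl15 (0.86) and Cox10 (0.85), and for Prdm1 Sesn1 (0.82) and Rnf166 (0.80). These correlations describe 15 samples that share 4 tissues and their libraries, and the highest of 10137 values is high by selection.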

How the data were processed

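iNKT cells were sorted from 4 tissues and polyadenylated RNA was sequenced. The authors deposited RSEM expected counts and TPM for each gene and sample; their processing notes name cutadapt 1.7.1, Bowtie2 2.2.9, RSEM 1.2.31 and GRCm38. Expected counts were rounded to whole numbers and tested with edgeR 4.0.16 in R 4.3.3 (filterByExpr, TMM factors of 0.755 to 1.18, a model of tissue and batch, robust quasi-likelihood test), fitted over all 15 samples, with Benjamini-Hochberg adjustment over 13600 genes. Of 48795 identifiers, 48349 had a symbol. The deposited TPM values were used for levels and ratios. Replicates had a Pearson's r of 0.817 to 0.950 on log2 CPM and differed by more than sampling noise, so none was counted as a duplicate. With totals of 1152702 to 8670570 expected counts, 1 count is worth most in thymus replicate 2, where low genes are least precise. Tissues came from the sample labels.

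The 10 factors and the gene lists were chosen with earlier results of these data known. A gene of the lists is not reported here. Named genes were the 10 factors, up to 3 called genes in each direction per list and comparison with the largest fold change and a mean of at least 5 CPM, the 2 such genes of highest correlation with each factor, and markers above 5 CPM in a sample. Il4, Il13, Cbfb, Cul3, Bcl6, Trdv4 and, for the NKT2 list in the LNs, the fourth called gene were added after their values were seen. The fitting code was tested on simulated data. Alternatives were DESeq2, RLE scaling, other filters, no batch term, a replicate block, limma on log2(TPM + 1), each batch alone, only the tissues compared, and each sample left out.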

Additional observations from a re-analysis of the deposited data

Results flagged for a closer look

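In mLN, Gata3 stood at 62.4 CPM in replicate 1 while the other 3 samples lay between 78.9 and 81.7, a gap of 0.858 of the whole range. In spleen, Maf stood at 179 CPM in replicate 2 while the other 3 lay between 139 and 144, a gap of 0.871 of the range. These were the 2 samples far from the others among 29 groups of 4 samples (gene and tissue), where Dixon's criterion flags about 1 group in 20 by chance.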

How the results depend on the processing

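Of 13 calls of the factors, 13 were kept with DESeq2, RLE scaling, no filter or at least 10 counts in every sample, 12 with a replicate block, 6 without a batch term, 4 with limma on log2(TPM + 1), 3 in either batch alone, and 6 of 9 with only the tissues compared; fits to 1 batch or only the tissues compared use fewer samples, and the cause of the other lost calls was not tested. No called difference changed sign. With DESeq2, 2 factors were called in iLN against spleen (2.43% of all genes), 3 in mLN against thymus (1.76%), 5 in iLN against thymus (2.06%) and 6 over the 4 tissues (4.44%). Without a filter the same numbers of factors were called, with shares of 2.24%, 1.79%, 1.98% and 4.68% of all genes. With at least 10 counts, 2 were called in iLN against spleen (2.75%). Without a batch term the counts were 1 for thymus against spleen, 0 for iLN against spleen, 0 for iLN against mLN and 1 for the LNs. With limma they were 1, 0, 0 and 0 in this order (0.594%, 0.506%, 0.198% and 0.560% of all genes) and 1 for mLN against thymus (0.629%). In batch 1 alone they were 1, 0, 0 and 0 in this order (0.346%, 0.622%, 0.177% and 0.730%) and 1 for iLN against thymus (0.876%). Batch 2 holds 1 iLN sample, so counts from it alone are not listed. With only the tissues compared, 0 were called in iLN against spleen (0.690% of all genes) and 0 in iLN against mLN (0.163%). In iLN against thymus 2 were called (1.17%), Runx1 and Rora, and Maf was not. With 1 sample left out, counts ran from 0 to 1 in iLN against spleen (0.799% to 1.98% of all genes). They also ran from 0 to 1 in iLN against mLN (0.326% to 0.490%), and from 1 to 4 for the LNs (1.17% to 1.89%). Over all 24238 genes with a count, DESeq2 called 407 in thymus against spleen, 266 in mLN against spleen, 588 in iLN against spleen and 488 in the LNs. The main fit called 179, 89, 211 and 234 of 13600 genes, and the fit without a filter called 393, 273, 544 and 532 of 24238. Whether the same replicate number pairs samples could not be told from the values. Samples of the same number from different tissues had a mean correlation of 0.114 (13 of 21 pairs over 0.1, the lowest 0.0039). Samples of the same batch with another number had a mean of 0.0988 (9 of 21 pairs over 0.1). Under the replicate block Tbx21 in the LNs was -1.04 (adjusted p = 0.0155), the 1 call lost, and Runx1 and Bcl11b in iLN against mLN were -0.0025 and -0.0312. Other uncalled values that changed sign were Gata3 in mLN against thymus (-0.0018 with RLE, -0.0121 with at least 10 counts, -0.0015 with only these tissues, -0.12 in batch 2), Runx1 in iLN against mLN (-0.0823 without a batch term, -0.0476 in batch 2), Runx1 in mLN against spleen (-0.0526) and Prdm1 in the LNs (0.0222) with limma, and in batch 1 Bcl11b in mLN against spleen (-0.0115) and Prdm1 in mLN against thymus (-0.18). In batch 2 they were Tbx21 in thymus against spleen (0.26), Runx3 in mLN against spleen (0.20), Gata3, Rora and Prdm1 in iLN against spleen (-0.42, -0.22 and 0.0376), Gata3 and Runx3 in iLN against thymus (-0.29 and 0.12), Zbtb16, Gata3 and Bcl11b in iLN against mLN (-0.0736, -0.17 and -0.11), and Gata3, Runx3 and Prdm1 in the LNs (-0.27, 0.16 and 0.26). As ratios of CPM, which are not per length, the log2 ratio of Tbx21 to Zbtb16 was -0.99 in thymus, -2.39 in mLN and -3.07 in iLN.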
